A study of Mus musculus with 6 samples.

Results

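Peroxisome proliferator-activated receptors (PPARs) and genes of fatty acid storage were followed in mouse peritoneal macrophages that overexpress angiotensin-converting enzyme (ACE) and in wild-type cells. The set holds 10 genes of the 25509 in the table, found by symbol: the receptors Pparg, Ppard and Ppara, their partner Rxra, and the lipid genes Plin2, Pdk4, Fabp4, Fabp5, Cd36 and Lpl. All 10 had a row, and 8 passed the filter on low counts, while Ppara and Pdk4 did not. The 6 poly-A RNA-seq libraries comprised 3 of Tg-ACE mice, whose labels also carry the name JWT, and 3 of WT mice, all of C57BL/6 strain. Every library came from macrophages drawn into the peritoneum with thioglycollate, collected on day 4, purified by Percoll gradient and left to adhere for 2 h. The labels give neither the promoter nor the cells that drive the transgene, neither age nor sex, and not whether mice were pooled. The sample descriptions place replicate 1 of either genotype in Exp-156 and the other replicates (2 and 3) in Exp-156b, 2 experiment codes that the labels do not explain. Nothing in the labels says that replicates are separate mice, and p-values measure the spread between these libraries.

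PPARs are nuclear receptors that bind fatty acids and their derivatives and act on DNA as heterodimers with retinoid X receptors such as RXRA. In macrophages PPARG and PPARD are known for switching on genes that take up, bind and store fatty acids, so that lipid-laden cells express more of the lipid droplet coat protein perilipin 2. Their response element is a direct repeat of the hexamer AGGTCA with 1 base between the copies.

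The libraries held 24294244 to 28120393 counts, and the detection floor of 3 counts equals 0.105 to 0.123 CPM (counts per 1e6 counts, after scaling by TMM factors). Ace itself stood at 25.6 to 100.6 CPM in Tg-ACE and 7.59 to 16.7 CPM in WT libraries, without overlap (log2 fold change 1.95, SE 0.23, edgeR adjusted p = 0.136). The macrophage genes Cd68 and Csf1r were present in every library. Exp-156 and Exp-156b libraries stood apart more than the genotypes did, the first principal component holding 74.6% of the variance and separating the codes. Xist, an RNA made from the inactive X of female cells, stood at 0.409 and 0.527 CPM in the Exp-156 libraries and at 327.1 to 454.2 CPM in Exp-156b libraries, and the Y-linked Ddx3y at 47.9 and 51.5 CPM against at most 0.106 CPM.

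Set in order by RPKM (CPM per kilobase of exon), the storage genes lay far above the receptors. Fabp5, a cytosolic fatty acid carrier, averaged 1060 RPKM over the 6 libraries and ranked 32nd of all genes. Plin2, the perilipin that coats lipid droplets, averaged 562 RPKM and Cd36, the membrane receptor for fatty acids and oxidized lipoproteins, 486 RPKM. Plin2, with a range of 389 to 908 RPKM, overlapped both Fabp5 (699 to 1326 RPKM) and Cd36 (407 to 613 RPKM), which did not overlap each other. Lpl, the secreted lipase that frees fatty acids from lipoprotein triglyceride, averaged 202 RPKM, and Fabp4, the fatty acid carrier also known as aP2, averaged 116 RPKM. The receptors followed, Pparg at 27.4, Rxra at 20.5 and Ppard at 4.83 RPKM. At the lengths used, no range from Cd36 down to Ppard overlapped that of its neighbour. Pdk4 and Ppara, at 0.0326 and 0.0102 RPKM, closed the order. This order depends on the lengths. For Fabp4 the exon union of 4489 bases equals the whole span of the gene, introns included, which lowers its RPKM. The unions used for Fabp5 and Lpl were 3567 and 10478 bases, and the places of these genes depend on them as well. By mean CPM, without lengths, Lpl (2115) stood above Plin2 (1974) and Cd36 (1745), and Rxra (112) above Pparg (81). Fabp4 (522 CPM) lay between Cd36 and Rxra. The level of Fabp5 carries an extra uncertainty, because 5 processed pseudogenes match its transcript at 93.6% to 98.3% identity over 336 to 409 bases. None of these has a row of its own among the counts, and their part in the level was not tested.

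**Figure D1:**
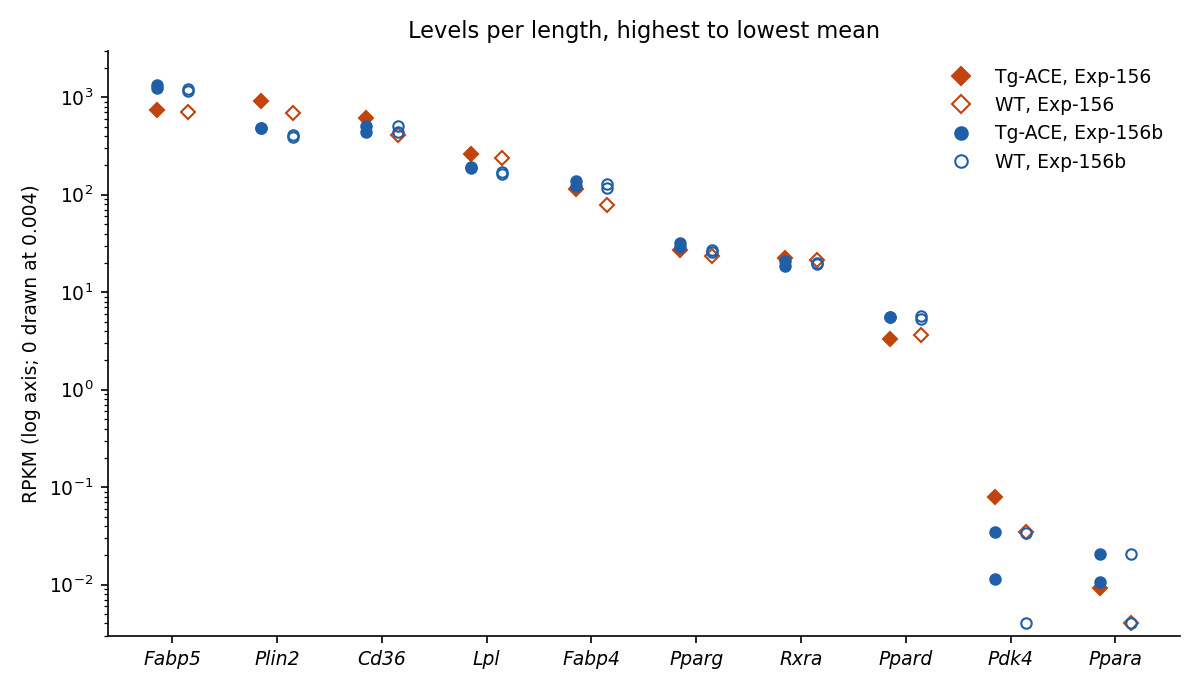
Level of each gene in RPKM on a log axis, genes ordered by mean from left to right, with 1 symbol per library (filled Tg-ACE, open WT, diamonds Exp-156, circles Exp-156b). Fabp5 and Plin2 change places in Tg-ACE replicate 1, where Plin2 stands at 908 and Fabp5 at 733 RPKM, and a 0 is drawn at 0.004.

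Among the tested receptors, Pparg had the largest genotype difference and Ppard and Rxra had smaller ones, and none of them passed. Pparg stood at 79.3, 93.9 and 86.9 CPM in Tg-ACE replicates 1, 2 and 3, against 69.8, 77.1 and 79.3 CPM in the WT replicates. The Tg-ACE values lay above the WT values of the same experiment in every case, and the groups as a whole touched only where Tg-ACE replicate 1 met WT replicate 3. The log2 fold change, Tg-ACE minus WT with the experiment code as a term, was 0.20 (SE 0.06, unadjusted p = 0.0127), and failed the threshold in edgeR (adjusted p = 0.761). It was 0.18 inside Exp-156 and 0.21 inside Exp-156b.

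Ppard, the widely expressed PPAR, stood at 24.9, 41.9 and 41.5 CPM in Tg-ACE and 27.2, 39.5 and 42.8 CPM in WT libraries, replicates 1 to 3 in order. The Exp-156 library was the low one in each genotype, and the genotypes overlapped fully (log2 fold change -0.03, SE 0.07, edgeR adjusted p = 0.95). Rxra, the shared DNA-binding partner, stood at 122.1, 114 and 102.4 CPM in Tg-ACE, against 117.3, 110 and 106.8 CPM in WT libraries. Its difference was the smallest of the 8 tested genes in size (0.02, SE 0.07, edgeR adjusted p = 0.968).

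Ppara, the PPAR best known for fatty acid oxidation in liver, was at the edge of detection. It had 1, 2 and 1 counts in the Tg-ACE libraries and 0, 0 and 2 counts in the WT libraries. The summed level was 0.0513 CPM in Tg-ACE (exact Poisson 95% interval 0.014 to 0.131 CPM) and 0.0257 CPM in WT (0.00311 to 0.0928 CPM), intervals that cover counting error only. Pdk4, a kinase that switches off pyruvate dehydrogenase and a known PPAR target in muscle and liver, had 8, 1 and 3 counts in Tg-ACE and 3, 0 and 3 counts in WT libraries. Its summed level was 0.154 CPM (0.0796 to 0.269) in Tg-ACE and 0.0771 CPM (0.0283 to 0.168) in WT. For both genes the intervals overlap, so no genotype difference was detectable at this depth, and neither entered the tests across genes.

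Plin2 showed the largest genotype difference of the 8 tested genes over all 6 libraries, although Cd36 and Fabp4 exceeded it inside Exp-156, and Fabp4 (0.34) exceeded it (0.32) without Tg-ACE replicate 3. Plin2 reached 3189 CPM in Tg-ACE and 2437 CPM in WT inside Exp-156. Inside Exp-156b Plin2 stood at 1699.7 and 1701 CPM in Tg-ACE, against 1452 and 1365 CPM in WT. Each Tg-ACE library thus lay above every WT library of its own experiment, although over all 6 libraries the groups overlapped, with 2196 ± 859.5 CPM in Tg-ACE and 1751 ± 595.5 CPM in WT (SD, n = 3 each). The log2 fold change was 0.31 (SE 0.07, unadjusted p = 0.00274), the 55th smallest p of 12827 tested genes, and did not pass in edgeR (adjusted p = 0.622). DESeq2 with the same terms gave 0.32 and did pass (adjusted p = 0.00117), and over all alternatives the adjusted p ranged from 0.00117 to 1, the highest without the experiment code.

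Promoter sequences from 250 bases before to 50 bases after each annotated start site (RefSeq, GRCm38.p6) were matched by symbol for 7 of the 10 genes, with 10 promoters in all. Fabp4, Fabp5 and Lpl had no entry. Both strands were searched for the direct repeat of AGGTCA with any 1 base between the copies, which 0.0396% of 32851 promoters hold, and for the single hexamer AGGTCA, which 16.3% hold and which is part of the repeat. The repeat was found in 0 of the 10 promoters and the hexamer in 5, of Pparg, Plin2, Cd36 and Rxra. Plin2 and Pparg are the genes with the smallest genotype p of the set. Their promoters that hold the hexamer are shown with it in capitals (TGACCT where it lies on the other strand). The first is chr4:86670010-86670309 on the reverse strand, the others chr6:115360894-115361193 and chr6:115362099-115362398 on the forward strand. A further Pparg promoter, still farther downstream at chr6:115421816-115422115, held no hexamer and is not shown.
Plin2: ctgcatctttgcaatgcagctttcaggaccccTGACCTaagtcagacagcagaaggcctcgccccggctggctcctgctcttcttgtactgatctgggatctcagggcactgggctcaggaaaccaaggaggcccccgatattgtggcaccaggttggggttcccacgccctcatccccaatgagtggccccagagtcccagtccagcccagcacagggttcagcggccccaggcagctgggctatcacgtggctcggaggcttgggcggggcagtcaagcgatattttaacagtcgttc
Pparg, upstream start: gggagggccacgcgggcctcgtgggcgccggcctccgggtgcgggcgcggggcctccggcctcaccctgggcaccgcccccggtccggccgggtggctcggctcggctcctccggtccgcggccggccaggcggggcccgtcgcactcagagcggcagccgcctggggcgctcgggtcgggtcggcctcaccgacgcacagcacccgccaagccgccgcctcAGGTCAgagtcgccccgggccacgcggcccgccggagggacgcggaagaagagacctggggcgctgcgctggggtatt
Pparg, downstream start: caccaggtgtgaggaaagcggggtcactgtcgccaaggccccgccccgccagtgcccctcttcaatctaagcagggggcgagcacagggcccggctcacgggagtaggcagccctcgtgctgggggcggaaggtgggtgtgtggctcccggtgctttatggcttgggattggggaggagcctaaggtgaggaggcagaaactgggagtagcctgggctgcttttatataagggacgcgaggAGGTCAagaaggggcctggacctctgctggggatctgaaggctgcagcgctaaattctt
The hexamer begins 218 bases upstream of the start site in Plin2, and 28 and 9 bases upstream of the Pparg start sites shown. A match is a string of letters and not a site, and counts per gene do not tell which start Pparg transcripts came from. On GRCm38 (GENCODE vM21) Plin2 spans chromosome 4 from 86648386 to 86670060 on the reverse strand and Pparg chromosome 6 from 115360951 to 115490399 on the forward strand. Lpl spans chromosome 8 from 68880491 to 68907448 and Fabp5 chromosome 3 from 10012548 to 10016607, both forward. Fabp4 spans chromosome 3 from 10204088 to 10208576 and Cd36 chromosome 5 from 17781690 to 17888801, both reverse.

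Lpl followed the same order with a smaller difference. Inside Exp-156 it reached 2749.8 CPM in Tg-ACE and 2482 CPM in WT, and inside Exp-156b 1956 and 1996 CPM in Tg-ACE against 1784 and 1723 CPM in WT. No Tg-ACE library fell below a WT library of its experiment. Its log2 fold change was 0.16 (SE 0.07, unadjusted p = 0.0425, edgeR adjusted p = 0.761).

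Fabp5 and Fabp4, whose genes lie together on chromosome 3, are carriers that move fatty acids through the cytosol. Fabp5 stood at 2615, 4410 and 4730 CPM in Tg-ACE and 2495, 4300 and 4134 CPM in WT libraries. It was higher in Tg-ACE inside each experiment, by a log2 fold change of 0.10 over all libraries (SE 0.07, edgeR adjusted p = 0.837). Fabp4 stood at 517.6, 614.2 and 556.3 CPM in Tg-ACE, against 350.3, 573.2 and 522 CPM in WT. The lone WT library of Exp-156 was the low one, and inside Exp-156b the genotypes overlapped (log2 fold change 0.25, SE 0.11, edgeR adjusted p = 0.767).

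Cd36 was the member whose genotype difference rested most on 1 experiment. It stood at 2202, 1813 and 1587 CPM in Tg-ACE and 1462, 1822 and 1586 CPM in WT libraries. Inside Exp-156b the values of the genotypes were nearly the same, and inside Exp-156 the Tg-ACE library was 1.51 times the WT library. The log2 fold change of 0.19 over all libraries (SE 0.13, edgeR adjusted p = 0.828) was therefore 0.59 inside Exp-156 and -0.00343 inside Exp-156b, which is also its value without Tg-ACE replicate 1 or WT replicate 1.

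**Figure D2:**
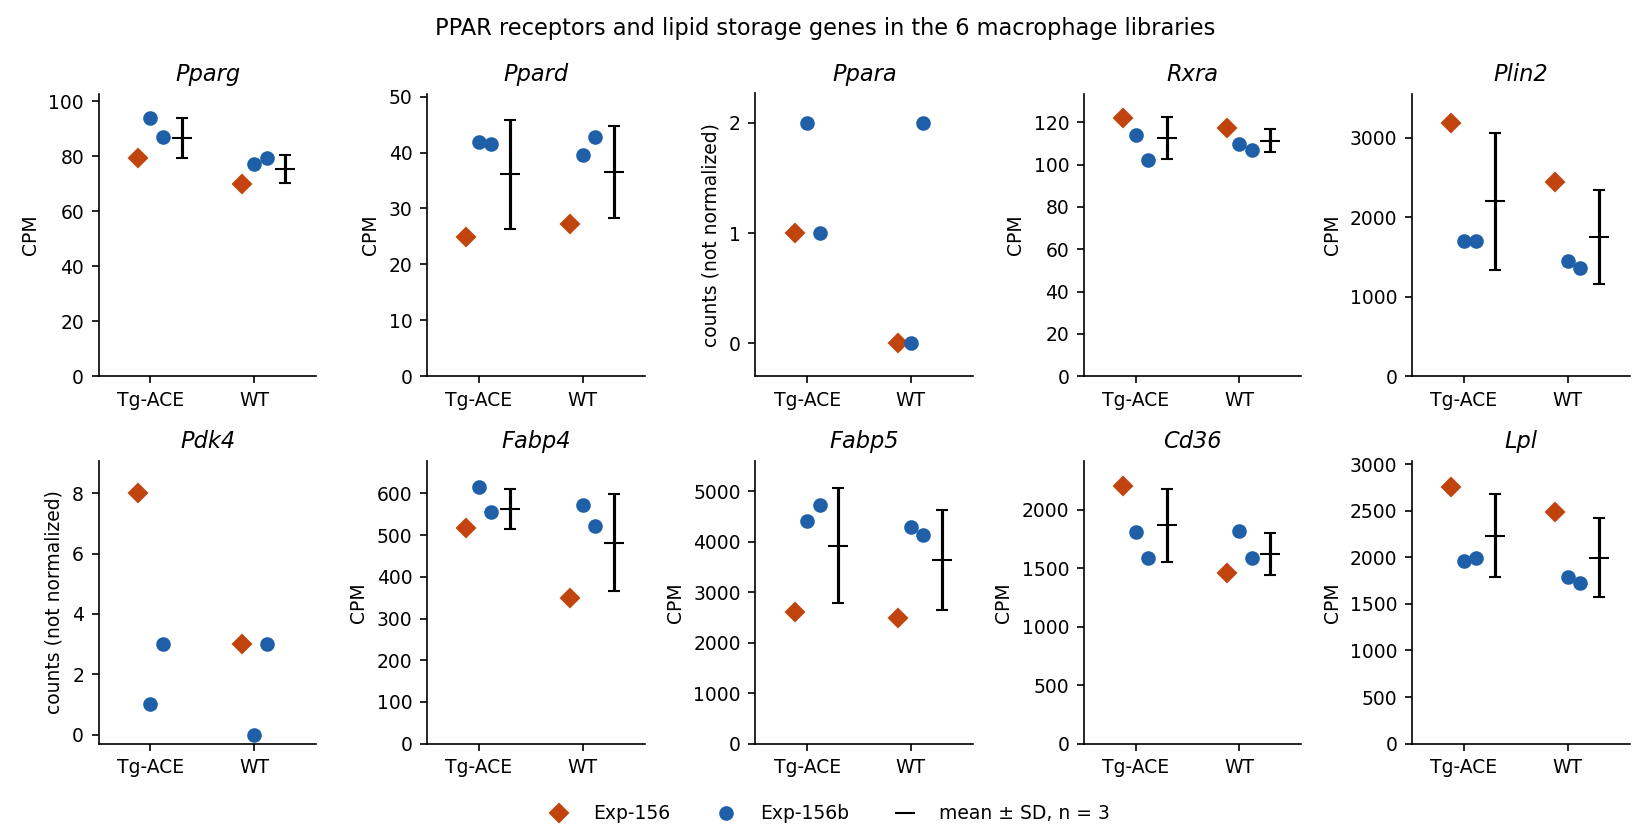
Each gene in each library, Tg-ACE left of WT, with diamonds for Exp-156 and circles for Exp-156b, in CPM (Ppara and Pdk4 in counts) and with black bars for mean ± SD (n = 3) where tested. In Plin2 and Lpl the diamonds lie above the circles and in Ppard and Fabp5 below them, while the genotypes differ less.

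Taking the 8 tested genes as a set, 7 had a genotype difference above 0, where 48.3% of all tested genes had one. Their median was 0.18 on the log2 scale, against -0.01 over all tested genes. The edgeR test called 0 of the 8, where it called 0.0156% of all tested genes. Over all 6 libraries 0 of the 8 were free of overlap between the genotypes, where 4.91% of all tested genes were, 2.38% with Tg-ACE higher and 2.53% with it lower. At an unadjusted p under 0.05 there were 3 of 8 (Plin2, Pparg and Lpl), all higher in Tg-ACE, where 6.48% of all tested genes had one and 2.64% were higher. In 4 genes, Pparg, Plin2, Fabp5 and Lpl, every Tg-ACE library stood above every WT library inside both experiments, as in 9.37% of all tested genes. These 10 genes were chosen with results on these libraries known, so the counts describe them and are not independent evidence of a direction. In bulk RNA, more cells of a type and more RNA per cell cannot be told apart. Without Tg-ACE replicate 1, or without WT replicate 1, the median was 0.11, with 6 genes above 0 and 2 below. In Exp-156, the summed level of 5 eosinophil markers was 98 CPM in the Tg-ACE library and 240 CPM in the WT library. The sum of 6 large peritoneal macrophage markers was 113 CPM in the Tg-ACE library and 193 CPM in the WT library, with Alox15 at 61.2 CPM in Tg-ACE and 149 CPM in WT, while Gata6, Timd4, Icam2 and Selp each had a higher value in the Tg-ACE library. Inside Exp-156b these sums were 13.9 and 15.8 CPM in Tg-ACE against 10.3 and 21.2 CPM in WT for eosinophils, and 20 and 25.4 CPM against 25 and 22.9 CPM for large peritoneal macrophages. Their part in the genotype differences was not tested.

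A difference between the experiments in the genotype effect was tested with an interaction term, and 0 of the 8 genes passed (edgeR), as did 0% of all tested genes. Cd36 and Fabp4 had the largest interactions, at a log2 difference of 0.59 (SE 0.19, unadjusted p = 0.0213) and 0.47 (SE 0.15, unadjusted p = 0.0235), both with an edgeR adjusted p of 0.646. An unadjusted p under 0.05 was found for these 2 of the 8 and for 7.65% of all tested genes. The spread for this test comes from Exp-156b alone, with 2 residual degrees of freedom.

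**Figure D3:**
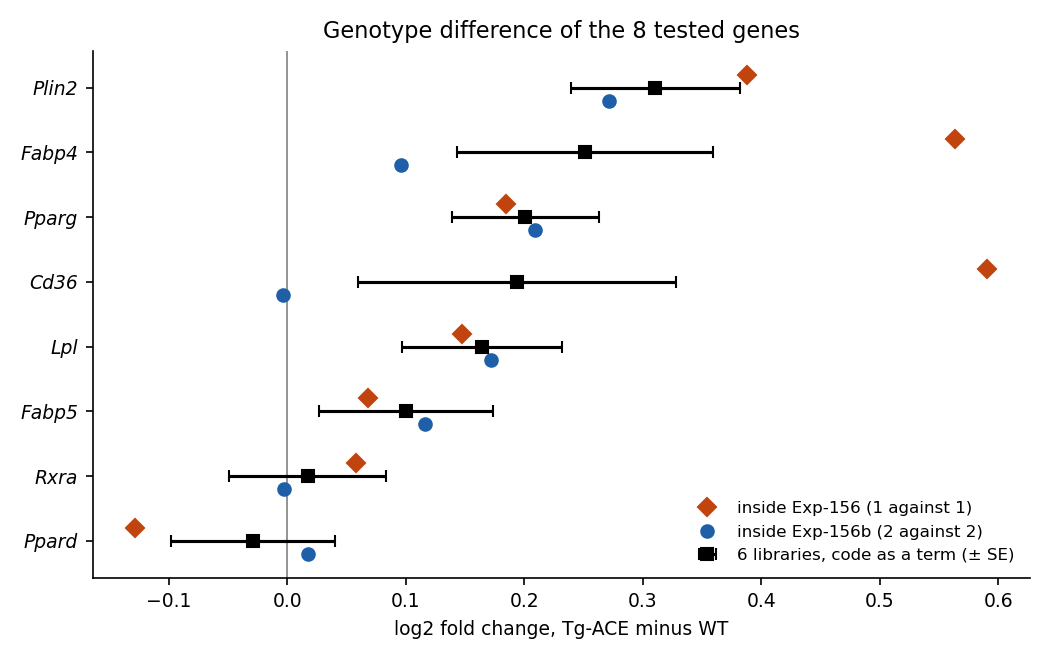
Log2 fold change, Tg-ACE minus WT, of the 8 tested genes, as squares with SE for all 6 libraries, diamonds for Exp-156 (1 library against 1) and circles for Exp-156b (2 against 2). Plin2 is highest over all libraries at 0.31, and Cd36 and Fabp4 show the widest gap between the experiments.

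Between the experiment codes 5 of the 8 tested genes differed, each by more than between genotypes and not all in 1 direction. Of these, Plin2 and Lpl were higher in Exp-156 than in Exp-156b, and Ppard, Fabp4 and Fabp5 were lower in the edgeR test, where 42.9% of all tested genes passed, so such a call was common among genes of any kind. Values above 0 were found for 4 of the 8 and for 50.5% of all tested genes. The codes did not overlap for 6 of the 8, the same 5 and Rxra, where 59.8% of all tested genes did not overlap, 30.9% with Exp-156 higher and 28.9% with it lower. Plin2 was 1.81 times as high in the 2 Exp-156 libraries as in the 4 Exp-156b libraries, with means of 2813 and 1554 CPM (log2 fold change 0.85, SE 0.07, edgeR adjusted p = 0.00014). Lpl was 1.4 times as high (0.49, SE 0.07, edgeR adjusted p = 0.00137).

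Fabp5 was the member most lowered in Exp-156, at a mean of 2555 CPM against 4393.5 CPM in Exp-156b (log2 fold change -0.78, SE 0.08, edgeR adjusted p = 0.00031). Ppard fell alongside it, at 26 against 41.4 CPM (-0.67, SE 0.08, edgeR adjusted p = 0.00046). Fabp4 was lower by a smaller step, 434 against 566.4 CPM (-0.40, SE 0.12, edgeR adjusted p = 0.026), and its call was lost without WT replicate 1 (-0.18, adjusted p = 0.271) or without Tg-ACE replicate 2 (-0.41, adjusted p = 0.0575). Pparg stood between, at -0.18 (SE 0.07, edgeR adjusted p = 0.0642), Rxra at 0.14 (SE 0.07, adjusted p = 0.132) and Cd36 at 0.09 (SE 0.14, adjusted p = 0.651). Thus the receptor Ppard and both carriers were lower in the libraries in which the droplet protein and the lipase were higher.

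The codes also differed in sex markers, cell type markers and stress genes, and these cannot be told apart from the code itself. All 8 macrophage markers were above 0 (median log2 fold change 0.82). Of these, 5 passed in edgeR as higher in Exp-156, though the sum of the 8 overlapped between the codes. Sums for eosinophils, neutrophils, mast cells and basophils, T and NK cells, and dendritic cells were higher in both Exp-156 libraries. So were those for endothelial cells and for platelet and erythroid cells, while the B cell sum overlapped. Summed over 6 genes, markers of large peritoneal macrophages gave 113 and 193 CPM in Exp-156, against 20 to 25.4 CPM in Exp-156b. In Exp-156 most of this sum was Alox15. Of the 5 tested, 4 were higher in Exp-156 and 1 lower, Gata6, the factor that defines these cells, at 6.78 and 5.32 CPM in Exp-156 and 12.6 to 17.8 CPM in Exp-156b (log2 fold change -1.42, edgeR adjusted p = 0.00095). Those of monocytes and small peritoneal macrophages, Fn1 foremost, gave 3860 and 4715 CPM against 1274 to 1755 CPM. Among the 5 of these tested in edgeR, 4 passed as higher in Exp-156 and 1 as lower. The sum of mesothelial and fibroblast markers ran the other way, at 240.5 and 261.5 CPM in Exp-156 and 317 to 654 CPM in Exp-156b. Among its 12 tested genes 8 passed as lower in Exp-156 and 1 as higher, where 20.0% and 22.9% of all tested genes did. Immediate early and heat shock genes summed to 1399.5 and 1506 CPM in Exp-156 and 802 to 887 CPM in Exp-156b. Adipocytes also express Fabp4, Plin2, Cd36 and Lpl, and a part of adipocyte RNA in the levels of these genes was not tested. Of 9 adipocyte markers, Lep and Cidea were at 0 in all 6 libraries, and Plin1 reached at most 0.0409 CPM. Adipoq stood at 0.105 and 0.123 CPM in the Exp-156 libraries and at 0 in those of Exp-156b. The 9 markers summed to 14.7 to 25.5 CPM, nearly all of it the lipase gene Lipe.

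Other genes of the pathway were followed in lists that were likewise written with earlier results known. In the genotype comparison 0 genes of any of them passed in edgeR. Of 28 tested PPAR target genes outside the set, 22 were above 0 and 6 under it (median 0.10 on the log2 scale), where 48.3% of all tested genes were above 0. An unadjusted p under 0.05 was found for 6 of the 28, all higher in Tg-ACE, and for 6.48% of all tested genes, 2.64% higher. The genes with the smallest p were Slc25a20, the carnitine-acylcarnitine carrier of the mitochondrion (0.31, unadjusted p = 0.00155, edgeR adjusted p = 0.511), Hilpda, an inhibitor of droplet lipolysis (0.23), Angptl4, a secreted inhibitor of LPL (0.45), and Crat, carnitine acetyltransferase (0.19). Slc25a20 stood at 35.5, 27.1 and 27 CPM in Tg-ACE and 27.6, 21.7 and 22.6 CPM in WT libraries, higher in Tg-ACE inside both experiments. Of the 40 genes listed, 12 did not pass the filter, among them Plin1, Plin4, Plin5 and Cidec.

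Of the receptor partners and coregulators 5 of 19 tested were above 0 and 14 under it, with a median of -0.09 over all libraries, -0.00488 inside Exp-156 and -0.13 inside Exp-156b. Among all tested genes 48.3% were above 0. At an unadjusted p under 0.05 there were 5 lower and 1 higher, where 6.48% of all tested genes had such a p. Of all 12827 tested genes, 492 were lower and 339 higher at that p. Crebbp, a histone acetyltransferase, Med1, a Mediator subunit that binds PPARG, and Nrip1, a nuclear receptor corepressor, stood at -0.21, -0.29 and -0.22, none of which passed (edgeR adjusted p = 0.761 each). Inside Exp-156 the values of Crebbp and Med1 were -0.04 and -0.00488, and inside Exp-156b -0.30 and -0.44, while Nrip1 stood at -0.22 in both.

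Of 22 tested lipid droplet proteins and neutral lipid enzymes, 17 were above 0 and 5 under it (median 0.05), where 48.3% of all tested genes were above 0. Beside Hilpda, the smallest p were those of Pnpla2, the triglyceride lipase of droplets (0.19), Plin3, a perilipin (0.18), and the weakly expressed triglyceride synthase gene Dgat2 (-1.25), none passing (edgeR adjusted p = 0.761, 0.761 and 0.791). Dgat2 stood at 0.398 to 0.668 CPM in Tg-ACE and 0.319 to 1.95 CPM in WT. Among 10 tested genes of lipoprotein lipase handling, 6 were above 0 and 4 under it (median 0.11). Angptl4 stood at 27.9, 4.58 and 6.33 CPM in Tg-ACE and 16.4, 4.61 and 4.57 CPM in WT libraries, so that its difference was 0.76 inside Exp-156 and 0.25 inside Exp-156b. Lmf1, which matures LPL in the endoplasmic reticulum, stood at 0.20 (edgeR adjusted p = 0.761), and the weakly expressed Apoc1 at 0.31 (edgeR adjusted p = 0.887). Gpihbp1, the endothelial anchor of LPL, was at 0 in all libraries.

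Of the other fatty acid binding proteins only Fabp3 and Fabp7 of 8 passed the filter, and both lay below 0. Fabp7, the brain-type carrier, stood at 11, 12.6 and 12 CPM in Tg-ACE, against 13.9, 16.9 and 21.8 CPM in WT libraries, without overlap between the groups (log2 fold change -0.55, unadjusted p = 0.00292, edgeR adjusted p = 0.622). Fabp3, the heart-type carrier, stood at -0.09. Of the fatty acid uptake and activation genes 4 of 11 were above 0 (median -0.02), and of the pyruvate dehydrogenase genes 5 of 13 (median -0.00402). In the uptake list the smallest p belonged to Dbi, the acyl-CoA binding protein (0.10), the transporter genes Slc27a4 (0.14) and Slc27a3 (-0.37) and Acbd3 (0.08). In the pyruvate dehydrogenase list they belonged to Pdk1 (-0.10), Pdhx (0.12), Pdk3 (-0.15) and the pyruvate carrier subunit Mpc2 (0.10), and none passed.

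Across the experiment codes the same lists divided, and the genes named are from those that passed and average at least 5 CPM. Of the 28 tested PPAR target genes outside the set, 16 were higher and 3 lower in Exp-156, with a median of 0.29, against 0.00499 over all tested genes, of which 22.9% were higher and 20.0% lower. Angptl4 (2.11), Hilpda (1.77) and Cpt1a (1.17), the gate of mitochondrial fatty acid entry, had the largest changes among these. Cpt1a had 279.1 and 212.7 CPM in Exp-156, against 106.7 to 110 CPM in Exp-156b. The lipid droplet list had 3 higher and 8 lower of 22, with Mgll, the monoglyceride lipase (-1.97), Hilpda and the phosphatidate phosphatase gene Lpin2 (-0.88) foremost among these. Mgll varied widely inside Exp-156b, at 77.7 to 245.6 CPM, against 36.6 and 39 CPM in Exp-156.

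Coregulators had 7 higher and 1 lower of 19, among them the coactivator gene Ncoa3 (1.02), the myeloid factor gene Cebpa (0.73) and the oxysterol receptor gene Nr1h3 (0.41). Lipoprotein lipase handling had 3 higher and 3 lower of 10, with Angptl4 and the LPL cofactor gene Apoc2 (2.02) among the higher. Fatty acid uptake and activation had 3 higher and 6 lower of 11, with the transporter gene Slc27a6 (-2.82) and the acyl-CoA synthetase genes Acsl3 (-0.67) and Acsl1 (-0.46). Among pyruvate dehydrogenase genes 2 were higher and 5 lower of 13, with Pdk1 (1.12), the phosphatase gene Pdp1 (-0.49) and Pdk2 (0.48). Pdk1 had 55.7 and 61.9 CPM in Exp-156, against 25.5 to 28.2 CPM in Exp-156b, while its relative Pdk4 stayed near 0 in both. Fabp3 was higher in Exp-156 (0.57) where Fabp4 and Fabp5 were lower.

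**Figure D4:**
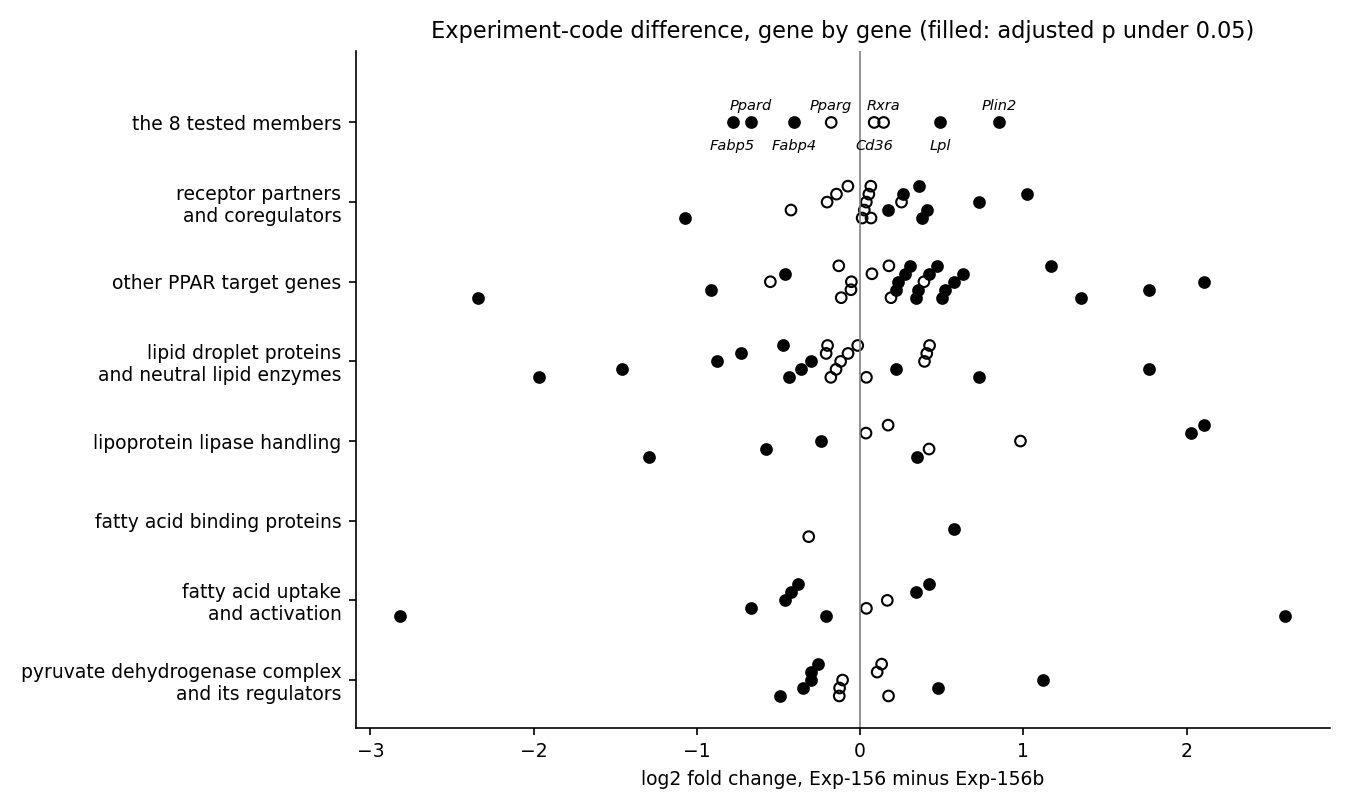
Log2 fold change, Exp-156 minus Exp-156b, of every tested gene of the lists, with the 8 tested members on top and 1 row for each pathway list below, filled where the edgeR adjusted p is under 0.05. Plin2 (0.85) and Lpl (0.49) lie on the right and Fabp5 (-0.78), Ppard (-0.67) and Fabp4 (-0.40) on the left of the members' row.

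Profiles over the 6 libraries were compared by the root mean square difference of mean-centred log2 CPM among 9730 tested genes that average at least 5 CPM, as a description. Among the members, Ppard and Fabp5 were the most alike (0.106) and Plin2 and Fabp5 the least (0.777). The gene nearest to Lpl was Acaa2, a thiolase of mitochondrial fatty acid oxidation (0.0266), followed by Ppp1r9b and Tmem106a. Nearest to Plin2 were the receptor tyrosine kinase gene Erbb3 (0.0688), B3galnt1 and Sesn1. Those nearest to Pparg were Scamp4 (0.0169), Fblim1 and Eri3, and to Ppard Pnpla7 (0.0154), Gpatch3 and Klhl7. For Rxra they were Gmfb (0.0189), Prpf18 and Stard3nl, and for Fabp5 Mief2 (0.0391), Sars and Mettl1. Fabp4 had Ralgds (0.0674), Spryd4 and Prps1 nearest, and Cd36 had Meis3 (0.0739), Mnda and Ifi204.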

How the data were processed

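Expected counts per gene for 6 libraries (stranded poly-A libraries, single 75-base reads, per the labels' protocols) were deposited by the authors as 1 table without normalization. The submitters' processing notes name STAR 2.5.0, RSEM 1.2.25, mm10 and GRCh38 without roles, and the sources used here give no strand setting. Counts were rounded to whole numbers, and 92 spike-in rows, summing to 1 count, were left out.

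Groups came from the titles and experiment codes from the descriptions. The series' design text calls the second group Tg-NKO, and the sample labels (Tg-ACE) were followed. Tests used edgeR 4.0.16 in R 4.3.3, with its quasi-likelihood test, TMM factors and filterByExpr (12827 genes kept), genotype and experiment code as terms, and Benjamini-Hochberg adjustment over all tested genes at 0.05. The direction is Tg-ACE minus WT for genotype and Exp-156 minus Exp-156b for the code, and SE is the fold change divided by the root of its F statistic. CPM uses TMM-scaled library sizes, and log2 CPM a prior count of 2. RPKM divides CPM by the union of GENCODE vM21 exons, without regard to isoforms. Near-identical transcripts were sought with blastn 2.17.0 (at least 93% over 300 bases). The fit was tested on simulated counts with changes larger than the genotype differences of the members, so that test does not bear on differences of their size. The members, the lists and the choice of fit were made with earlier results of these data known.

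Named genes of each list are those with the 4 smallest genotype p, the 3 largest changes that passed between codes at 5 CPM or more on average, and the 3 nearest profiles of each member. Some genes that this rule names are not reported here. Same-numbered replicates of the genotypes deviated together (correlations over genes 0.856, 0.483 and 0.637). Unlike-numbered replicates of Exp-156b did so as well (0.539 and 0.615), so the shared deviation was not particular to the same number. With the code removed, replicates 2 and 3 gave -0.178 and -0.101, but that fit makes such values negative on the whole by construction. Alternatives were relative log expression and upper-quartile factors, no filter, a filter of 5 CPM in 3 libraries, DESeq2 1.42.0, limma-voom 3.58.1, other terms and leaving out each library.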

Additional observations from a re-analysis of the deposited data

How the results depend on the processing

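In the genotype comparison 0 of the members passed under every alternative but DESeq2, which called 1, Plin2. Over all genes edgeR called 2, against 9 with no filter, 37 in DESeq2 and 0 with genotype alone, and leaving out a library gave 2 to 3. The replicate block in place of the code called 2 genes and 0 members and changed no other call. The count of members higher in Tg-ACE inside both experiments was 4 to 7 when an Exp-156b library was left out, 7 without Tg-ACE replicate 3. With fewer libraries this condition is easier to meet for any gene. The share of all tested genes is not given for these settings, so a higher count cannot be read as a result about the members. Between codes 5 members passed, 4 to 5 with a library left out, against 3430 to 5028 genes in all. Upper-quartile factors split those calls into 2408 higher and 3332 lower, against 2943 and 2559, and added Pparg (-0.25, adjusted p = 0.0167). The call of Fabp4 was lost with the code alone in the fit (-0.38, adjusted p = 0.0585). DESeq2 called 13 genes for the interaction, and leaving out an Exp-156b library gave 0 to 16 (16 without WT replicate 3), none of them a member. Without replicate 1 of either genotype the interaction cannot be estimated, so its dependence on the Exp-156 libraries was not tested.

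Signs turned only in values that did not pass. In the genotype comparison without replicate 1 of either genotype, or in Exp-156b alone, Ppard stood at 0.0177, Rxra at -0.00311 and Cd36 at -0.00343. With 1 library left out at a time, the genotype value ranged from -0.0761 to 0.0177 in Ppard, -0.0268 to 0.0693 in Rxra and -0.00343 to 0.31 in Cd36, and the code value of Cd36 from -0.221 to 0.373 (-0.013 without Tg-ACE replicate 3). With 1 Exp-156b library left out at a time, the interaction ranged from -0.0963 to 0.0299 in Pparg and -0.0306 to 0.138 in Rxra. Leaving out replicate 1 leaves the genotype values to Exp-156b alone, by construction, and the other causes were not tested. Depth limits Ppara and Pdk4, whose totals were 6 and 18 counts.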

Other observations

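Together the 10 genes took 1.16%, 1.04% and 1.06% of all counts in the Tg-ACE libraries and 0.950%, 1.02% and 0.974% in the WT libraries. In RPKM the ratio of Plin2 to Cd36 was 1.48 in Tg-ACE and 1.7 in WT inside Exp-156, and 0.958 and 1.1 in Tg-ACE against 0.815 and 0.879 in WT inside Exp-156b. The ratio of Pparg to Ppard was 8.11 in Tg-ACE and 6.53 in WT inside Exp-156, and 5.7 and 5.33 in Tg-ACE against 4.96 and 4.71 in WT inside Exp-156b, higher in Tg-ACE in each case. The ratio of Fabp5 to Fabp4 was lowest in Tg-ACE replicate 1, at 6.36, and lay between 8.96 and 10.7 in the other libraries. The size of this ratio depends on the exon lengths used, but its order over the libraries does not.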
